A study of Mus musculus with 74 samples.

Results

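Tox, Nr4a1, Nr4a2, Nr4a3, Batf, Irf4, Prdm1, Tbx21, Eomes and Id2 encode transcription factors that are known from work on effector and exhausted T cells, and they were taken by name, with no threshold on a measured value, though with earlier results of these data known. They are 10 of the 49480 gene symbols in the deposited table of raw counts. Each was followed across 20 groups of sorted immune cells in CPM, a gene's count scaled to 1000000 counts of its library.

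Each library came from 1000 sorted cells by Smart-seq2, which amplifies whole cDNAs from little RNA. The mice were C57BL/6J animals from the Jackson Laboratory aged 3 or 12 months, and cells were taken on day 10 of growth of MC38, a colon carcinoma line of this strain grown under the skin. The labels give the tumor for every sample, so the spleen groups too are from tumor-bearing mice, and no group is from tumor-free ones. Sorting gave CD8 T cells (CD45+ TCRb+ CD8+), conventional CD4 T cells (CD45+ TCRb+ CD4+ CD25-), regulatory T cells (CD45+ TCRb+ CD4+ CD25+), dendritic cells (CD45+ CD11b+ CD11c+ MHCII+) and macrophages (CD45+ CD11b+ F4/80+), each from tumor and spleen at both ages. Most groups hold 4 libraries. There are 3 in spleen dendritic cells at each age, in tumor dendritic cells at 12 months and in 3-month conventional CD4 T cells of the spleen, and 2 in tumor conventional CD4 T cells at 3 months. Replicate 1 of each dendritic cell group was from males and the other libraries were from females, per the titles. For 2 spleen dendritic cell libraries, replicates 3 and 4 of the 3-month group, the title and the age tag differ, and the title was followed.

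Antigen receptor signaling in T cells induces the NR4A nuclear receptors (Nr4a1, Nr4a2, Nr4a3) within the immediate early response, along with Irf4 and Batf, an AP-1 family protein that binds composite DNA elements together with Irf4. Tox, an HMG-box protein, and the NR4A receptors are known for their sustained expression in exhausted CD8 T cells of tumors and chronic infections. The T-box factors Tbx21 (T-bet) and Eomes direct effector and memory programs, Prdm1 (Blimp-1) is a zinc finger repressor of terminally differentiated lymphocytes, and Id2 binds E proteins and blocks their DNA binding. In myeloid cells some of these genes have other known roles: Irf4 in a subset of conventional dendritic cells, Nr4a1 in a class of monocytes, and Id2 in dendritic cell development.

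The promoters of the 3 NR4A genes are shown because they share a repeated short motif and the genes rose together in some sorted types of the tumor. These were CD8 T cells, conventional CD4 T cells and dendritic cells. In regulatory T cells and macrophages the 3 genes did not move together. Sequences are from RefSeq (GRCm38.p6, which is mm10), 5′ to 3′ on the strand of the gene. They run up to the RefSeq start, except for Nr4a3. Capitals mark TGACG, the core of the cAMP response element, on either strand (CGTCA is its reverse complement). The positions are chr15:101266596-101266845 (plus strand) for Nr4a1, chr2:57124004-57124253 (minus strand) for Nr4a2 and chr4:48045055-48045152 (plus strand) for Nr4a3, of which the 98 bases outside any annotated exon are shown.
Nr4a1: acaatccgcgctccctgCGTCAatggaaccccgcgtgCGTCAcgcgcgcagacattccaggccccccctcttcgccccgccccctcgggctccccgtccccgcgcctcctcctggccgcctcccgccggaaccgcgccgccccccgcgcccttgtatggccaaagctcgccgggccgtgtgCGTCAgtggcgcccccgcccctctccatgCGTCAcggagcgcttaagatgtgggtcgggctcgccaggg
Nr4a2: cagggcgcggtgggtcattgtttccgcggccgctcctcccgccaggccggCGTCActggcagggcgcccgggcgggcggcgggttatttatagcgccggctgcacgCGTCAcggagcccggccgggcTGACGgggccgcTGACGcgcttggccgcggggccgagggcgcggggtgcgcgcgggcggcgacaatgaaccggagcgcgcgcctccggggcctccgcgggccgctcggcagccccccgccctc
Nr4a3: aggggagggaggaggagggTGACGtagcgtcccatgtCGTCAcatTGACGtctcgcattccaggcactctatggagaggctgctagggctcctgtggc

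Within the 250 bases before its RefSeq start, each of the 3 NR4A genes held TGACG 4 times, and the stretch shown for Nr4a3 has 3 of its 4. The gene ranges given below are from GENCODE, another annotation, whose starts can differ. The range of Nr4a3 begins at 48045153, inside its 250-base window (chr4:48045055-48045304), so the rest of that window is exon in GENCODE. The Nr4a1 window lies within its gene range. The matches began 233, 213, 69 and 40 bases upstream of the start in Nr4a1, 200, 144, 123 and 111 bases in Nr4a2, and 231, 213, 205 and 147 bases in Nr4a3. Of 32851 promoters of the same length, 17.8% held TGACG on either strand at least once and 45 (0.137%) held it at least 4 times. The cut of 4 is the number found in the NR4A genes themselves, and no other motif was counted by copies. Prdm1 (38 bases upstream) and Batf (98 bases upstream) held it once each. Of the other motifs searched on both strands, the full element TGACGTCA, which contains TGACG on each strand, was in 1.55% of all promoters and in no member. The AP-1 motif TGANTCA was in 6.75% and, among the members, in Prdm1. The NFAT core GGAAAA was in 20.4% and in Batf, the kB motif GGGNNTTCC in 4.98% and in no member, and TATAAA in 12.4% and in Irf4 and Nr4a2. Promoters of 9 of the 10 members were read, all but Tox, and these letter matches describe the sequence only.

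Total counts ran from 1652812 to 9115858 per library. None of 103 pairs of replicates held identical counts, and all libraries matched the sex in their titles. Markers set the T cell libraries apart from the myeloid ones. The 7 T cell markers summed to 2962 to 7403 CPM in T cell libraries and to 0.709 to 230 CPM in dendritic cell and macrophage libraries. The 9 macrophage markers summed to 5419 to 41650 CPM in macrophage libraries and to at most 75.1 CPM in T cell libraries. Tumor dendritic cell libraries also carried macrophage markers, and spleen macrophage libraries carried neutrophil markers, as given below. The markers thus did not fully separate the myeloid sorts. Nothing in the labels says that replicates are separate animals, so p-values measure only the spread between these libraries. In bulk samples, fewer cells of a type and less RNA per cell cannot be told apart, and this holds for every difference below.

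Most of these factors were higher in tumor than in spleen T cells, and the myeloid types showed a mixed picture. As a mean over both ages, 9 of the 10 were higher in tumor CD8 T cells at an adjusted p under 0.05 (edgeR, adjusted over all genes tested) and none was lower, where 22.5% of all genes were higher and 19.6% were lower. In conventional CD4 T cells 7 rose and 2 fell, against a background of 16% higher and 11.2% lower. In regulatory T cells all 10 passed the test, 6 of them higher and 4 lower, against 25.9% and 27.6% of all genes. In dendritic cells 4 were higher and 2 lower in the tumor, against 24.4% and 22.7%. In macrophages 9 could be tested, all but Eomes, of which 2 were higher and 3 lower, against 23.9% and 27.8%. The median log2 fold change of the members tested was 2.55 in CD8 T cells, 1.78 in conventional CD4 T cells, 0.49 in regulatory T cells, 0.32 in dendritic cells and -0.66 in macrophages, and the median over all genes lay between -0.06 and 0.04 in each type.

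**Figure D1:**
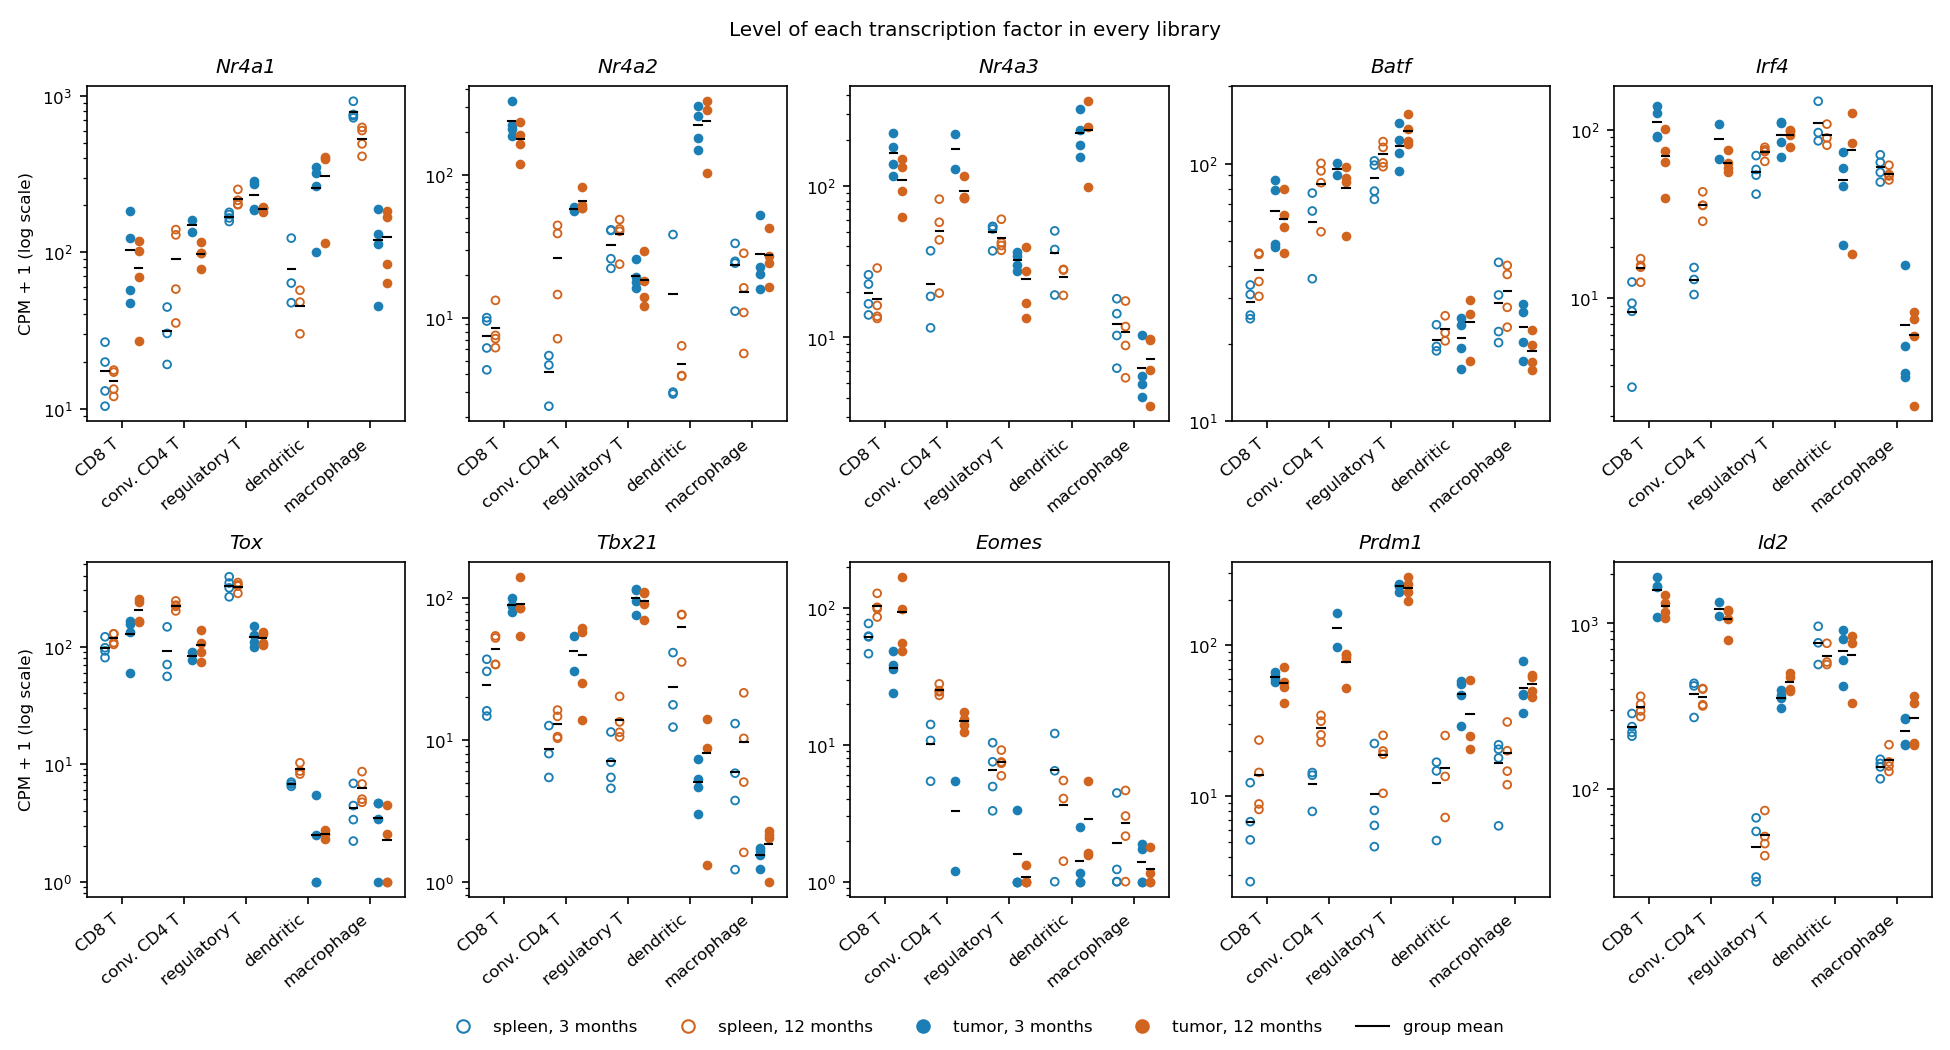
CPM + 1 on a log scale of each of the 10 genes in all 74 libraries, by sorted type, with open points for spleen, filled points for tumor, colors for age and bars for group means. Nr4a2 is highest in tumor dendritic cells (101.9 to 328 CPM) and tumor CD8 T cells (119.2 to 327.5 CPM), Prdm1 in tumor regulatory T cells (195 to 283.1 CPM) and Tox in spleen regulatory T cells (263.6 to 391.1 CPM).

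Nr4a2 (chr2:57106830-57124003) had the largest tumor increase of the 10 in CD8 T cells. Its spleen CD8 libraries held 3.31, 9.01, 8.48 and 5.13 CPM at 3 months and 12.2, 6.13, 5.16 and 6.52 CPM at 12 months, and the tumor libraries held 328, 188, 209 and 224 CPM at 3 months and 191, 235, 119 and 165 CPM at 12 months. No tumor library overlapped any spleen library. The log2 fold change was 4.95 ± 0.22 (standard error of the fit, n = 8 libraries per tissue), a 31.0-fold difference, with an adjusted p of 2.04e-12. In conventional CD4 T cells the tumor libraries lay between 54.9 and 81.3 CPM and the spleen libraries between 1.40 and 43.4 CPM, again without overlap (log2 fold change 2.81 ± 0.37, adjusted p = 1e-05). Regulatory T cells went the other way, from 21.2 to 47.7 CPM in spleen (median 39.6) to 11.01 to 28.2 CPM in tumor (median 16.9). Their libraries overlapped, and the fall was 0.70 ± 0.22 on the log2 scale (adjusted p = 0.0106).

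Nr4a3 (chr4:48045153-48086447) followed the same directions in the T cells. It rose from a median of 15.5 CPM (12.4 to 27.8) in spleen to 136.3 CPM (61.9 to 221) in tumor CD8 T cells, by 3.01 ± 0.22 on the log2 scale (adjusted p = 3.69e-09). It rose by 1.99 ± 0.32 in conventional CD4 T cells (adjusted p = 0.000164), where all 6 tumor libraries (82.6 to 221 CPM) lay above all 7 spleen libraries (10.6 to 80.9 CPM). In regulatory T cells it fell by 0.53 ± 0.19 (adjusted p = 0.0218), and this call was lost without replicate 3 of the 12-month spleen group (adjusted p = 0.0595), replicate 2 of the 12-month tumor group (0.052) or replicate 2 of the 3-month spleen group (0.0526). Nr4a1 (chr15:101254269-101274795), the family member whose transcript is often used as a readout of antigen receptor signaling, rose by 2.64 ± 0.37 in CD8 T cells (adjusted p = 5.07e-05), from 9.37 to 25.6 CPM in spleen to 26.2 to 182 CPM in tumor. It rose by 1.24 ± 0.28 in conventional CD4 T cells (adjusted p = 0.00321), where spleen libraries of 18.2 to 139 CPM overlapped tumor libraries of 76.9 to 161 CPM. By age the change there was 2.27 ± 0.45 at 3 months and 0.21 ± 0.35 at 12 months. The difference between the ages did not pass (-2.05 ± 0.57, adjusted p = 0.144). Without the 2 spleen libraries rich in ribosomal transcripts, described below, the mean change of Nr4a1 in conventional CD4 T cells did not pass. At 1.30, its log2 fold change was no smaller than with them.

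Nr4a1 in regulatory T cells depended on the scaling. The spleen libraries held 165, 179, 173 and 156 CPM at 3 months and 200.2, 214, 251 and 202 CPM at 12 months, and the tumor libraries held 274, 186, 188 and 283 CPM and 194, 179.7, 191 and 191 CPM. By CPM the tumor was thus above the spleen at 3 months and below it at 12 months, without overlap at either age. With TMM factors the log2 fold change was 0.37 ± 0.10 over both ages (adjusted p = 0.00392), 0.71 ± 0.14 at 3 months and 0.04 ± 0.14 at 12 months, and the difference between the ages did not pass (-0.67 ± 0.20, adjusted p = 0.999). Scaling by library totals alone, an alternative added after seeing the data, gave 0.13 (adjusted p = 0.249). The TMM factors raise tumor over spleen by 0.24 log2 units in regulatory T cells, 0.33 in dendritic cells and 0.22 in macrophages, and by less than 0.1 in the other two types.

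The tumor change of the NR4A genes differed between the T cell types in a fit of all 12 T cell groups. The tumor change of Nr4a2 was 5.63 ± 0.40 log2 units higher in CD8 than in regulatory T cells (adjusted p = 1.03e-13) and 2.15 ± 0.47 higher than in conventional CD4 T cells (adjusted p = 0.00537), the latter not past the threshold without the 2 ribosome-rich spleen libraries (2.26, adjusted p = 0.084). Against regulatory T cells the changes of Nr4a3 (3.52 ± 0.36, adjusted p = 9.66e-10) and Nr4a1 (2.25 ± 0.40, adjusted p = 8.13e-05) were higher in CD8 T cells too. Against conventional CD4 T cells those of Nr4a1 (1.41 ± 0.44, adjusted p = 0.0536) and Nr4a3 (1.03 ± 0.38, adjusted p = 0.11) did not pass the threshold. Within the spleen, CD8 T cells were below regulatory T cells in Nr4a1 by 3.45 ± 0.31, in Nr4a2 by 2.11 ± 0.29 and in Nr4a3 by 1.19 ± 0.26 log2 units, with adjusted p-values of at most 0.000171. Within the tumor Nr4a2 (3.52 ± 0.28) and Nr4a3 (2.33 ± 0.25) were higher in CD8 T cells, and Nr4a1 was lower there (-1.20 ± 0.27, adjusted p = 0.000362).

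Tumor dendritic cells held more of all 3 NR4A transcripts than spleen dendritic cells. Nr4a2 was at 1.92, 37.3 and 2.01 CPM at 3 months and 5.35, 2.90 and 2.93 CPM at 12 months in the spleen, against 180, 149.8, 302 and 257 CPM and 285, 102 and 328 CPM in the tumor. The spleen library at 37.3 CPM, replicate 3 of the 3-month group and one of the 2 with conflicting age labels, stood apart from the other 5, and tumor and spleen did not overlap. Nr4a2 rose by 5.45 ± 0.79 on the log2 scale (43.7-fold, adjusted p = 0.000417), Nr4a3 by 3.32 ± 0.37 (adjusted p = 4.31e-05) and Nr4a1 by 2.59 ± 0.44 (adjusted p = 0.000914). Nr4a3 lay between 18.0 and 49.6 CPM in spleen and between 97.2 and 362 CPM in tumor, and Nr4a1 between 29.1 and 122 CPM in spleen and 99.7 and 406 CPM in tumor, overlapping at 3 months and not at 12 months.

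Macrophages had a different NR4A profile. Spleen macrophages held the highest Nr4a1 level of the 10 combinations of type and tissue, 922, 723, 759 and 746 CPM at 3 months and 599, 409.5, 492 and 627 CPM at 12 months, and tumor macrophages held 129, 44.2, 112 and 189 CPM and 182, 82.7, 62.5 and 167 CPM. All tumor libraries lay below all spleen libraries, and Nr4a1 fell by 2.19 ± 0.27 on the log2 scale (adjusted p = 4.7e-06). Nr4a2 (0.80 ± 0.35, adjusted p = 0.0676) and Nr4a3 (-0.66 ± 0.36, adjusted p = 0.126) did not pass the threshold in macrophages, with medians of 19.2 and 22.5 CPM for Nr4a2 and 10.1 and 4.84 CPM for Nr4a3 in spleen and tumor. The difference of the tissue effect, dendritic cells minus macrophages, passed for Nr4a1 (4.78 ± 0.52, adjusted p = 3.85e-07), Nr4a2 (4.64 ± 0.78, adjusted p = 0.000131), Nr4a3 (3.96 ± 0.51, adjusted p = 2.96e-06) and Irf4 (2.80 ± 0.56, adjusted p = 0.000641), which made 4 of 10 members against 23.3% of all genes. In the spleen Nr4a1 was lower in dendritic cells than in macrophages by 3.56 ± 0.42 log2 units (adjusted p = 2.96e-07), and in the tumor it was higher by 1.23 ± 0.36 (adjusted p = 0.00765), though not past the threshold without replicate 3 of the 12-month tumor dendritic cells (0.99, adjusted p = 0.0632).

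Other genes of the immediate early response, a list of 15, moved with the NR4A genes in some of these types. In tumor against spleen dendritic cells all 14 tested rose, among them Dusp1, a MAP kinase phosphatase (3.57 ± 0.22, adjusted p = 4.49e-08), and Klf6 (2.33 ± 0.15, adjusted p = 1.92e-08). In CD8 T cells 11 of 14 rose and 1 fell, with Klf6 up by 1.47 ± 0.09 (adjusted p = 7.22e-12) and Egr1 by 1.4965 ± 0.14 (adjusted p = 9.06e-09). In conventional CD4 T cells 8 of 14 rose and 1 fell. In regulatory T cells 4 of 13 were higher and 4 lower, near the shares of all genes (25.9% and 27.6%). There Klf6 rose by 1.94 ± 0.09 (adjusted p = 6.02e-13) and Btg2, an antiproliferative gene, fell by 1.76 ± 0.09 (adjusted p = 1.36e-12). In macrophages 5 of 14 rose, such as Jun (1.26 ± 0.15, adjusted p = 1.06e-06), and 3 fell, against 23.9% and 27.8% of all genes. The share of all genes that rose was 24.4% in dendritic cells, 22.5% in CD8 and 16% in conventional CD4 T cells. The summed level of the 15 genes ran from 1041 to 2482 CPM in spleen and from 8473 to 12670 CPM in tumor dendritic cells, and from 9672 to 15950 CPM in spleen and 8872 to 13540 CPM in tumor macrophages. It ran from 1731 to 2528 CPM in spleen and 2343 to 5107 CPM in tumor CD8 T cells. These genes and the NR4A genes are also known to respond to tissue handling, and the part of cell preparation in the differences was not tested.

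Irf4 (chr13:30749226-30766976), the IRF family member that receptor signaling induces in lymphocytes, rose in all 3 tumor T cell types. Spleen CD8 libraries held 7.34, 8.31, 11.5 and 1.96 CPM at 3 months and 14.6, 16.1, 14.2 and 11.4 CPM at 12 months, and tumor CD8 libraries held 125, 89.0, 137 and 90.6 CPM and 73.8, 100.3, 63.2 and 38.2 CPM. The groups were well apart, and the log2 fold change was 3.17 ± 0.23 (adjusted p = 6.8e-10). It was 1.89 ± 0.19 in conventional CD4 T cells (adjusted p = 1.78e-08) and 0.78 ± 0.12 in regulatory T cells (adjusted p = 1.53e-05), whose spleen level was already at a median of 66.4 CPM. By age the change in conventional CD4 T cells was 2.83 ± 0.31 at 3 months and 0.96 ± 0.24 at 12 months, a difference given below. The change in CD8 T cells was larger than in conventional CD4 T cells by 1.28 ± 0.28 (adjusted p = 0.00309) and than in regulatory T cells by 2.37 ± 0.25 (adjusted p = 1.74e-10).

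In macrophages Irf4 was lower in the tumor. Spleen macrophages held 69.9, 47.8, 54.8 and 62.9 CPM at 3 months and 52.1, 60.5, 49.2 and 53.2 CPM at 12 months, and tumor macrophages held 4.15, 2.40, 2.60 and 14.6 CPM and 6.50, 1.28, 7.31 and 4.94 CPM. All 8 tumor libraries were below all 8 spleen libraries, and the fall was 3.18 ± 0.35 on the log2 scale (adjusted p = 5.06e-07). In dendritic cells, where Irf4 serves one of the conventional subsets, the spleen libraries lay between 79.9 and 146 CPM and the tumor libraries between 17.2 and 124 CPM, and the difference did not pass the threshold (-0.39 ± 0.42, adjusted p = 0.479).

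Batf (chr12:85686669-85709087), the AP-1 partner of Irf4, had the smallest ratio of highest to lowest group mean of the 10. Its group means ran from 17.8 CPM in tumor macrophages to 133 CPM in tumor regulatory T cells, both at 12 months, and in the order of the 20 group means no neighbors had ranges apart. It rose by 1.03 ± 0.16 in tumor CD8 T cells (adjusted p = 1.22e-05), from 24.0 to 44.0 CPM to 44.1 to 85.6 CPM, and by 0.60 ± 0.11 in regulatory T cells (adjusted p = 9.06e-05). In conventional CD4 T cells (0.36 ± 0.20, adjusted p = 0.193), dendritic cells (0.39 ± 0.19, adjusted p = 0.103) and macrophages (-0.34 ± 0.19, adjusted p = 0.145) it did not pass. Of 12 further AP-1, NFAT and NF-kB genes, 8 were tested in CD8 T cells, where 5 rose and 1 fell. The count was 4 of 8 higher and none lower in conventional CD4 T cells. In regulatory T cells 3 of 9 rose and 1 fell, in dendritic cells 3 of 11 rose and 3 fell, and in macrophages 2 of 11 rose and 6 fell. The share of all genes higher was 22.5% in CD8, 16% in conventional CD4 and 25.9% in regulatory T cells, 24.4% in dendritic cells and 23.9% in macrophages. The shares lower were 19.6%, 11.2%, 27.6%, 22.7% and 27.8%. The FOS-related Fosl2 rose in CD8 T cells by 2.95 ± 0.27 (adjusted p = 5.36e-07), in conventional CD4 T cells by 4.296 ± 0.23 (adjusted p = 4.33e-13), in regulatory T cells by 3.06 ± 0.15 (adjusted p = 9.52e-13) and in dendritic cells by 5.16 ± 0.27 (adjusted p = 2.04e-08).

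Tox (chr4:6686353-6991557) rose in tumor CD8 T cells and fell in the tumor CD4 types. Its highest level was in spleen regulatory T cells, with 346, 391, 314 and 264 CPM at 3 months and 349, 326, 282 and 333.5 CPM at 12 months. In tumor regulatory T cells it was at 98.0, 148.5, 107 and 123 CPM and at 133, 102, 106 and 127 CPM. No library overlapped, and Tox fell to 0.428 of its spleen level (-1.22 ± 0.11 on the log2 scale, adjusted p = 8.9e-09). In CD8 T cells it rose by 0.68 ± 0.16 (adjusted p = 0.00164), from 79.5 to 127 CPM in spleen to 58.8 to 254 CPM in tumor. The tumor library at 58.8 CPM, replicate 4 of the 3-month group, lay below every spleen library, so the ranges overlapped at 3 months and not at 12 months.

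In conventional CD4 T cells Tox was lower in the tumor by 0.57 ± 0.19 on the log2 scale (adjusted p = 0.0278), with an adjusted p of 0.0583 when the replicate number entered the fit as a block. It was lost too without replicate 1 (adjusted p = 0.055) or 3 (0.058) of the 12-month tumor group, replicate 3 of the 3-month spleen group (0.105) or replicate 1 of the 3-month tumor group (0.0935). The tumor libraries lay between 73.1 and 138 CPM, below all 12-month spleen libraries (199.8 to 243 CPM) and overlapping the 3-month ones (54.7 to 146 CPM). The tissue effect of Tox was higher in CD8 T cells than in conventional CD4 T cells by 1.26 ± 0.24 (adjusted p = 0.000941) and than in regulatory T cells by 1.89 ± 0.22 (adjusted p = 5.8e-09). Dendritic cells and macrophages held at most 9.26 CPM of Tox in any library. Its fall in tumor dendritic cells (-1.96 ± 0.69, adjusted p = 0.0301) rests on a step from 5.47 to 9.26 CPM in spleen to 0 to 4.45 CPM in tumor, and it stands beside T cell markers that summed to 36.5 to 230 CPM in spleen and 1.54 to 30.3 CPM in tumor. The part of T cell RNA in it was not tested. The call did not pass with the replicate block (adjusted p = 0.113), without the libraries of conflicting labels (adjusted p = 0.219) or with their age tags (adjusted p = 0.161), or when replicate 3 or 4 of either spleen group or replicate 1 of the 12-month tumor group was left out (adjusted p = 0.0522 to 0.0718).

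The related T-box factors Tbx21 and Eomes parted ways in the tumor. Tbx21 (chr11:97098071-97115331), which directs type 1 effector programs, rose in all 3 T cell types. In regulatory T cells its spleen libraries held 3.55, 5.94, 4.43 and 10.4 CPM at 3 months and 19.2, 12.4, 10.3 and 9.49 CPM at 12 months, and its tumor libraries held 113, 93.5, 115 and 74.6 CPM and 109, 89.7, 107 and 68.8 CPM. These did not overlap, and the log2 fold change was 3.68 ± 0.20 (12.8-fold, adjusted p = 2.86e-12). Tumor regulatory T cells then stood beside tumor CD8 T cells (89.2 ± 24.5 CPM, SD, n = 8) at 96.4 ± 17.7 CPM (SD, n = 8), with overlapping ranges and a difference, CD8 minus regulatory, of -0.09 ± 0.23 log2 units (adjusted p = 0.792). Tbx21 rose by 1.58 ± 0.21 in CD8 T cells (adjusted p = 5.15e-06) and by 2.10 ± 0.32 in conventional CD4 T cells (adjusted p = 1e-05). Its tissue effect in regulatory T cells was larger than in CD8 T cells by 2.11 log2 units (-2.11 ± 0.34 for CD8 minus regulatory, adjusted p = 1.25e-05) and than in conventional CD4 T cells by 1.598 ± 0.39 (adjusted p = 0.00567).

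Eomes (chr9:118478212-118486132), the T-box factor of memory and exhausted CD8 T cells, rose in no tumor T cell type. CD8 T cells held the highest levels, 45.5 to 127 CPM in spleen (median 80.7) and 23.2 to 169 CPM in tumor (median 47.5), and the tissue difference did not pass the threshold (-0.37 ± 0.24, adjusted p = 0.229). Without the tumor library of 169 CPM, replicate 4 of the 12-month group, Eomes passed as lower in the tumor (-0.61, adjusted p = 0.00543). It fell in conventional CD4 T cells (-1.38 ± 0.40, adjusted p = 0.011), a call that was lost without replicate 1 of the 3-month tumor group, at 0.192 CPM (-0.93, adjusted p = 0.0938). In regulatory T cells it fell by 4.14 ± 0.71 (adjusted p = 4.97e-05), from 2.30 to 9.38 CPM in spleen to 0 in 6 of 8 tumor libraries, with 2.36 and 0.330 CPM in the other two. The tissue effect was higher in CD8 than in regulatory T cells by 3.67 ± 0.67 (adjusted p = 9.3e-05).

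In myeloid cells Tbx21 was lower in the tumor. Spleen dendritic cells held 16.6, 11.3 and 40.2 CPM at 3 months and 34.4, 75.5 and 75.0 CPM at 12 months, and tumor dendritic cells held 6.35, 1.98, 3.63 and 4.29 CPM and 7.77, 0.313 and 13.1 CPM. The fall was 2.49 ± 0.59 on the log2 scale (adjusted p = 0.00539), and it did not pass without the 2 libraries of conflicting labels (-2.26, adjusted p = 0.0523) or with their age tags (-2.04, adjusted p = 0.0728). NK cell markers, 5 genes, summed to 49.1 to 138 CPM in these spleen and 4.84 to 117 CPM in these tumor libraries, and 8 B cell markers to 524 to 3359 CPM in spleen and 11.6 to 35.6 CPM in tumor, with no marker at 0 throughout either tissue. The part of these cells in the Tbx21 level was not tested. In macrophages Tbx21 fell by 3.02 ± 0.73 (adjusted p = 0.00181), from 0.215 to 20.4 CPM to 0 to 1.26 CPM, and Eomes was at most 3.65 CPM.

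Prdm1 (chr10:44437177-44528501) was the one member that rose in the tumor in all 5 sorted types. In regulatory T cells the spleen libraries held 5.43, 7.08, 3.65 and 21.4 CPM at 3 months and 18.0, 24.4, 9.49 and 18.98 CPM at 12 months, and the tumor libraries held 250.2, 254, 247 and 224 CPM and 283, 253, 225 and 195 CPM. The groups lay far apart, and the log2 fold change was 4.45 ± 0.26 (21.9-fold, adjusted p = 1.68e-10). It was 2.87 ± 0.27 in CD8 T cells (adjusted p = 4.81e-08), 2.54 ± 0.21 in conventional CD4 T cells (adjusted p = 2.76e-10), 2.05 ± 0.41 in dendritic cells (adjusted p = 0.00145) and 1.85 ± 0.26 in macrophages (adjusted p = 7.59e-06). By age the change in conventional CD4 T cells was 3.51 ± 0.33 at 3 months and 1.56 ± 0.25 at 12 months, a difference given below. The increase in regulatory T cells was larger than in conventional CD4 T cells by 1.95 ± 0.40 (adjusted p = 0.000753) and than in CD8 T cells (-1.59 ± 0.37 for CD8 minus regulatory, adjusted p = 0.00239). Tumor regulatory T cells, at 241 ± 26.4 CPM (SD, n = 8), stood apart from all others in the order of levels, and the next 4 places were also tumor groups, with ranges that overlapped from one to the next.

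Id2 (chr12:25093799-25097140), the inhibitor of E proteins, rose in tumor T cells and macrophages. In regulatory T cells the spleen libraries held 26.3, 54.1, 28.1 and 65.5 CPM at 3 months and 45.4, 50.3, 38.2 and 72.6 CPM at 12 months, and the tumor libraries held 308, 351, 366 and 395 CPM and 390.2, 473, 399 and 498 CPM. Spleen regulatory T cells had the lowest Id2 level of the 10 combinations of type and tissue, apart from the next one. The log2 fold change was 3.30 ± 0.17 in regulatory T cells (adjusted p = 3.77e-12), 2.47 ± 0.11 in CD8 T cells (adjusted p = 2.09e-14), 1.67 ± 0.16 in conventional CD4 T cells (adjusted p = 3.31e-09) and 1.02 ± 0.16 in macrophages (adjusted p = 2.55e-05). Tumor CD8 T cells reached 1073 to 1918 CPM, against 207 to 361 CPM in spleen. Dendritic cells were high in both tissues, 563 to 961 CPM in spleen and 329 to 916 CPM in tumor, without a difference past the threshold (0.25 ± 0.24, adjusted p = 0.429). Its paralog Id3 fell in CD8 (-2.45 ± 0.16, adjusted p = 1.07e-11), conventional CD4 (-3.43 ± 0.35, adjusted p = 1.34e-06) and regulatory T cells (-6.44 ± 0.29, adjusted p = 1.15e-12). In a list of 11 paralogs and family members, 4 rose in each T cell type and only Id3 fell. Of the 3 E protein genes, 1 rose and 1 fell in CD8 T cells, 1 fell in regulatory T cells, none passed in conventional CD4 T cells, and all 3 fell in dendritic cells. In macrophages 1 of them rose and 1 fell. In CD8, conventional CD4 and regulatory T cells, dendritic cells and macrophages, 22.5%, 16%, 25.9%, 24.4% and 23.9% of all genes rose. The shares that fell were 19.6%, 11.2%, 27.6%, 22.7% and 27.8%.

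**Figure D2:**
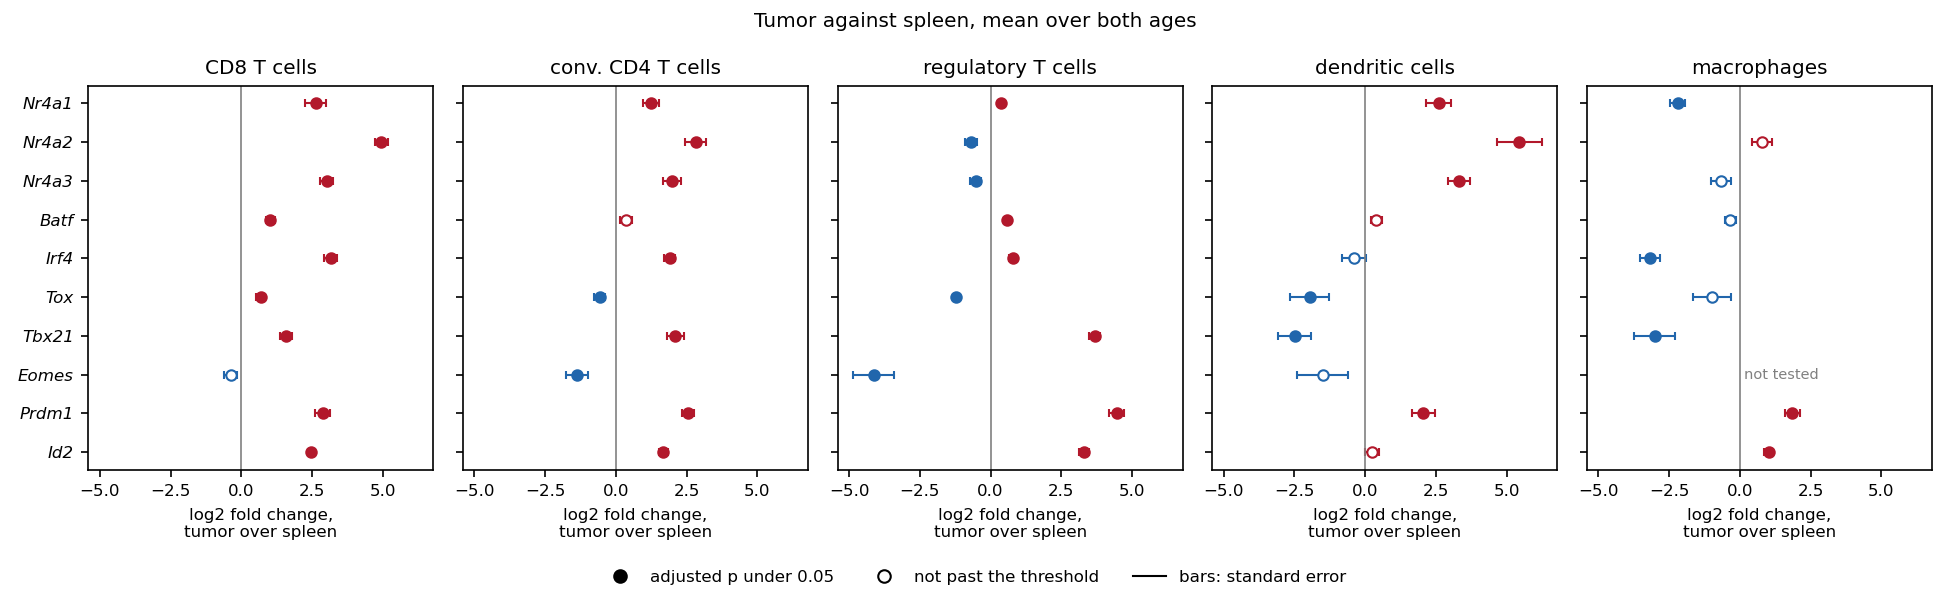
Log2 fold change of tumor over spleen, as a mean over both ages, for the 10 genes in each sorted type, with bars for the standard error and filled points for an adjusted p under 0.05. Prdm1 lies right of 0 in all 5 types, from 1.85 in macrophages to 4.45 in regulatory T cells, while Nr4a2 is at 4.95 in CD8 T cells and at -0.70 in regulatory T cells.

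Tumor dendritic cell libraries differed in their macrophage markers, and several members moved with them. The 9 macrophage markers summed to 490 to 825 CPM in the 6 spleen libraries and to 3359 to 6861 CPM in 5 tumor libraries, and to 20740 and 17220 CPM in replicate 2 of the 12-month and of the 3-month tumor groups. In these 2 libraries the 8 dendritic cell markers summed to 857 and 1199 CPM, against 1500 to 3018 CPM in the other 5. Nr4a1 was at 114 and 99.7 CPM in the 2 libraries and at 263 to 406 CPM in the others, Irf4 at 17.2 and 19.8 CPM against 45.6 to 124 CPM, and Id2 at 329 and 417 CPM against 600 to 916 CPM. Nr4a2 was at 101.9 and 149.8 CPM against 179.9 to 328 CPM, and Nr4a3 at 97.2 and 153.6 CPM against 186.4 to 362 CPM. Prdm1 went the other way, at 57.98 and 57.0 CPM in the 2 libraries and at 19.7 to 54.1 CPM in the others, and without the 2 its tumor increase in dendritic cells was 1.59 (adjusted p = 0.000547). Without the 2 libraries 8 members passed for tumor against spleen in place of 6. Those added were Batf (0.53, adjusted p = 0.0307) and Id2 (0.49, adjusted p = 0.016). The share of all genes that passed without the 2 libraries is not given here. The spleen macrophage libraries carried neutrophil markers, 9 genes summing to 5542 to 41000 CPM against 184 to 1120 CPM in the tumor, and B cell markers of 923 to 3171 CPM against 6.76 to 36.9 CPM. Their part in the macrophage differences of Nr4a1, Irf4 and Tbx21 was not tested.

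**Figure D3:**
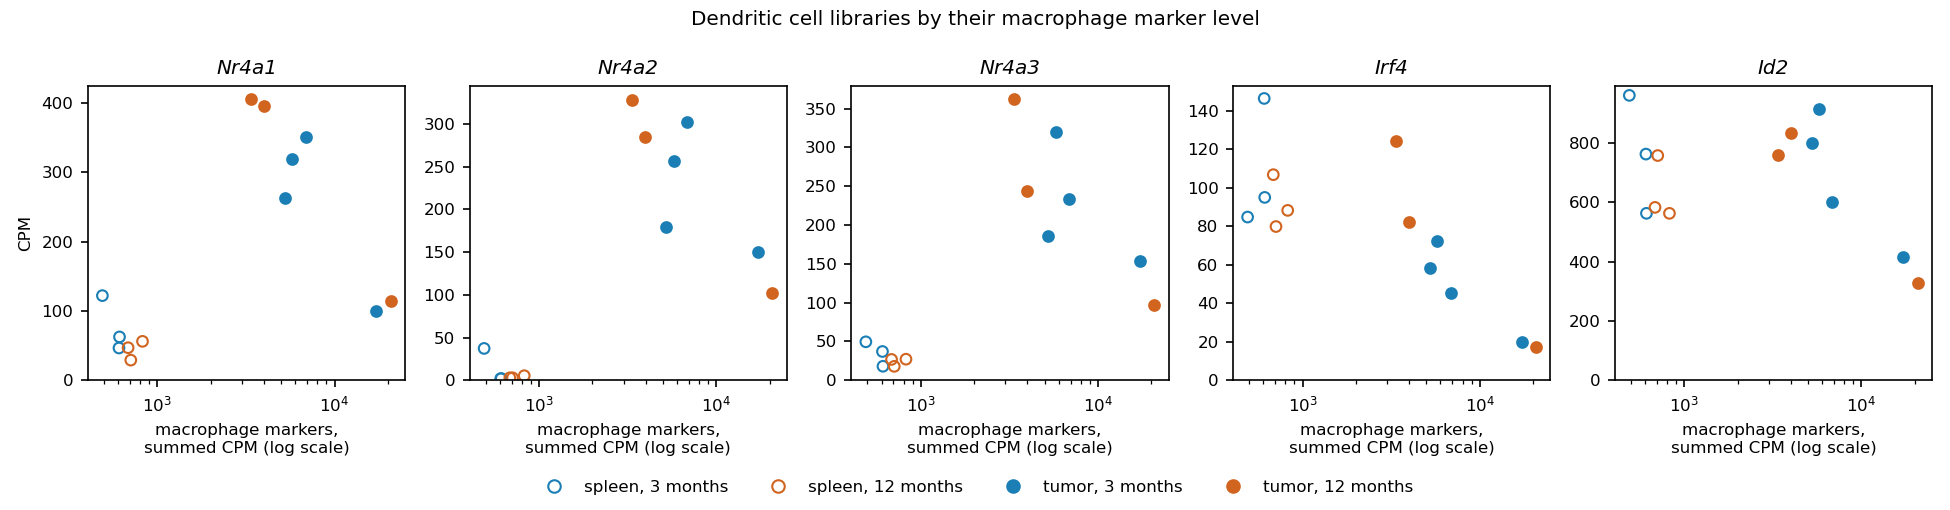
CPM of Nr4a1, Nr4a2, Nr4a3, Irf4 and Id2 in each dendritic cell library (vertical axis) against the summed CPM of 9 macrophage markers (horizontal axis, log scale), with open points for spleen, filled points for tumor and colors for age. The 2 tumor libraries at 17220 and 20740 CPM of macrophage markers have the lowest Nr4a1, Nr4a2, Nr4a3, Irf4 and Id2 among the tumor libraries.

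Other regulators known to act with these factors in T cells were counted from lists of named genes. Of 14 regulators of effector cells and tissue residence, 11 rose and 1 fell in tumor CD8 T cells, 11 rose in conventional CD4 T cells, and 10 rose and 2 fell among the 13 tested in regulatory T cells. Bhlhe40, a helix-loop-helix repressor of tissue T cells, rose by 5.69 ± 0.19 in CD8 (adjusted p = 1.27e-14) and by 4.06 ± 0.19 in conventional CD4 T cells (adjusted p = 3.4e-15). Hif1a, the oxygen-regulated factor, rose by 2.66 ± 0.09 in regulatory T cells (adjusted p = 1.74e-15). Of 9 regulators of naive and memory cells, 8 fell in CD8, 6 in conventional CD4 and 7 in regulatory T cells, and none rose. Tcf7 fell by 8.80 ± 0.27 in regulatory T cells (adjusted p = 9.66e-16) and Lef1 by 2.57 ± 0.20 in CD8 T cells (adjusted p = 2.33e-08). Of 16 genes reported as targets of the members, all 16 rose in CD8 T cells, 15 of 16 in conventional CD4 T cells and 14 of 15 in regulatory T cells, with the inhibitory receptor gene Pdcd1 up by 6.12 ± 0.25 in CD8 T cells (adjusted p = 6.94e-12). The median log2 fold change of these targets was 4.59 in CD8, 3.37 in conventional CD4 and 3.50 in regulatory T cells. For all 3 lists, the shares of all genes that rose were 22.5%, 16% and 25.9% in these types. The shares that fell were 19.6%, 11.2% and 27.6%.

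Levels also differed between the T cell types within a tissue. In the tumor 4 members differed between CD8 and conventional CD4 T cells, all higher in CD8, against 15.3% of all genes. Between CD8 and regulatory T cells 8 differed (47.2%), and between regulatory and conventional CD4 T cells 9 differed (41.4%). In the spleen the counts were 7 (11.7%), 9 (45.6%) and 6 (42.2%). The tissue effect itself differed for 4 members between CD8 and conventional CD4 T cells (4.82% of all genes), for 9 between CD8 and regulatory T cells (13.2%) and for 7 between regulatory and conventional CD4 T cells (8.98%), and these comparisons share libraries with one another. The largest spleen contrast in Id2 was 3.12 ± 0.16 log2 units lower in regulatory than in conventional CD4 T cells (-3.12, adjusted p = 1.16e-21). Dendritic cells and macrophages differed in 6 members in the tumor, all higher in dendritic cells (45.9% of all genes), and in 5 in the spleen (52.9%).

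Conventional CD4 libraries carried markers of regulatory T cells. The 3 markers Foxp3, Il2ra and Ikzf2 summed to 187 to 589 CPM in spleen at 3 months, 845 to 1170 CPM in spleen at 12 months and 994 to 2484 CPM in tumor, with none at 0. Foxp3 alone was at 5.34% of its regulatory T cell level in spleen and 17.0% in tumor, and Il2ra at 4.67% and 17.4%. Ikzf2 was the largest part of the sums, with means of 636.8 CPM in spleen and 1333 CPM in tumor. These were 43.2% and 63.9% of its regulatory T cell level, and Ikzf2 is also in the list of effector and residence regulators above. Nr4a2 in tumor conventional CD4 T cells was at 343% and Nr4a3 at 435% of the regulatory T cell level, while Prdm1 was at 38.9% and Tbx21 at 41.0% of it. The part of regulatory T cells in the conventional CD4 differences was not tested.

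Age differences in the spleen were seen in CD8 and conventional CD4 T cells. In spleen CD8 T cells 1 member passed, against 1.02% of all genes. Eomes was at 76.3, 60.7, 61.4 and 45.5 CPM at 3 months and at 100.5, 85.2, 98.0 and 127 CPM at 12 months, without overlap, and was higher by 0.76 ± 0.16 on the log2 scale (adjusted p = 0.016). The call was lost when all 4 CD8 groups were fitted together (adjusted p = 0.802) and without replicate 4 at 12 months (adjusted p = 0.122), replicate 3 at 3 months (0.0568) or replicate 4 at 3 months (0.0785). Beside it, the 5 NK cell markers summed to 24.5 to 30.4 CPM at 3 months and 88.4 to 95.9 CPM at 12 months, with Ncr1 at 0 in all 8 libraries. Tbx21 (0.87 ± 0.27, adjusted p = 0.185) and Prdm1 (1.17 ± 0.47, adjusted p = 0.469) did not pass. Tbx21 did pass with the replicate number as a block (0.94, adjusted p = 0.0102) and without the low-count filter (0.87, adjusted p = 0.00909), and Id2 with the block (0.42, adjusted p = 0.0162). Bhlhe40 rose with age in these cells (2.02 ± 0.35, adjusted p = 0.00218), as did 4 of the 14 target genes tested, among them Ccl5 (2.30 ± 0.24, adjusted p = 0.00126).

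In spleen conventional CD4 T cells 3 members were higher at 12 months, against 3.92% of all genes. Nr4a2 was at 4.43, 3.66 and 1.40 CPM at 3 months and at 43.4, 13.5, 37.9 and 6.13 CPM at 12 months (2.89 ± 0.62, adjusted p = 0.016). Irf4 was at 9.48, 11.9 and 14.2 CPM and at 41.7, 27.6, 34.5 and 34.6 CPM (1.36 ± 0.30, adjusted p = 0.0183). Tox was at 69.2, 146 and 54.7 CPM and at 224, 218.5, 199.8 and 243 CPM (1.16 ± 0.25, adjusted p = 0.0175). None of the 3 overlapped between the ages, and neither did Prdm1 (1.14 ± 0.33, adjusted p = 0.0616) or Eomes (1.24 ± 0.36, adjusted p = 0.0611), which did not pass. All 12-month libraries lay above all 3-month ones in 11.2% of all genes tested. Bhlhe40 (3.13 ± 0.30, adjusted p = 2.07e-05) and Lag3 (3.24 ± 0.33, adjusted p = 4.02e-05) rose with age, and of the target genes 8 of 14 rose.

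These spleen calls rest on few 3-month libraries. Replicates 1 and 4 of that group had ribosomal protein genes at 8.85% and 12.0% of counts, against 3.92% to 4.65% in the other spleen conventional CD4 libraries, and replicate 4 held plasma cell markers of 589 CPM against at most 11.5 CPM in the rest of these spleen libraries. Without these 2 libraries, which leaves 1 library at 3 months, assumed to vary like the others, no call of the 3 held: Tox was 0.53 higher (adjusted p = 0.46), Nr4a2 2.74 (adjusted p = 0.746) and Irf4 1.48 (adjusted p = 0.181). The part of RNA quality was not tested. Each of the 3 calls was also lost without single libraries of either age (4 for Irf4, 4 for Nr4a2 and 6 for Tox of 7, adjusted p = 0.0544 to 0.138). No member passed with age in the main fits of spleen regulatory T cells, dendritic cells or macrophages, where 0.0489%, 0.593% and 0% of all genes did. There 3, 1 and 1 members had an unadjusted p under 0.05, against 5.33%, 12.1% and 6.07% of all genes. By DESeq2 Tbx21 passed in the dendritic cells among these (adjusted p = 0.00597).

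In the tumor no member passed with age in any of the 5 types in the main edgeR fits or by DESeq2. With edgeR, 3 members passed without the low-count filter and 3 with the replicate block, as named below. Of all genes, 0% passed in CD8 T cells, 0.0311% in conventional CD4 T cells, 0% in regulatory T cells, 0% in dendritic cells and 0% in macrophages. At an unadjusted p under 0.05 there were 4 members in CD8, 4 in conventional CD4 and 1 in regulatory T cells, and 0 in the myeloid types, against 486 of 11804 genes in CD8 T cells, 5.29% and 3.94% of all genes in the other two, 1.31% in dendritic cells and 6.02% in macrophages. Tumor CD8 T cells held Eomes at 34.8, 23.2, 37.2 and 47.5 CPM at 3 months and at 47.5, 97.8, 54.6 and 169 CPM at 12 months (1.39 ± 0.43, adjusted p = 1). Tox (0.70 ± 0.27) was the other of the 4 in CD8 T cells that was higher at 12 months. Irf4 (-0.67 ± 0.23) and Nr4a3 (-0.58 ± 0.26) were lower. Tumor conventional CD4 T cells held Eomes at 0.192 and 4.41 CPM and at 12.99, 14.5, 11.4 and 16.4 CPM (2.62 ± 0.80, adjusted p = 0.531). The others of the 4 there were lower at 12 months: Nr4a3 (-0.94 ± 0.23), Prdm1 (-0.79 ± 0.26) and Nr4a1 (-0.61 ± 0.22).

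**Figure D4:**
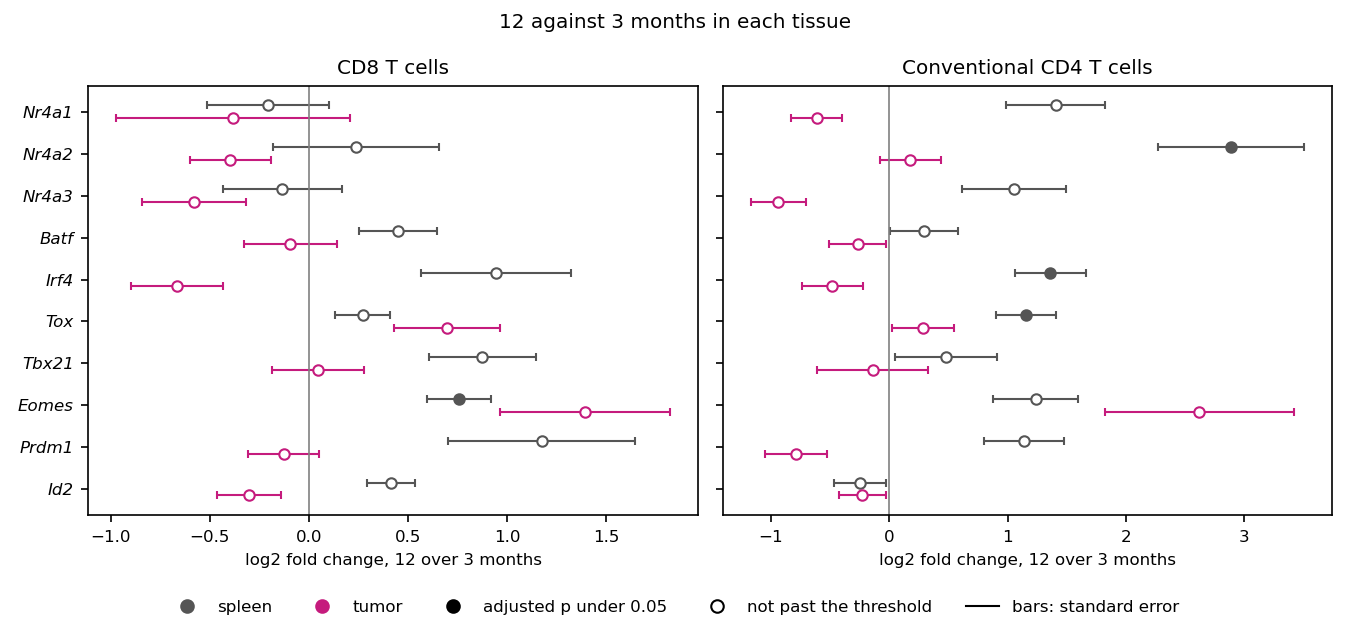
Log2 fold change of 12 over 3 months for the 10 genes in CD8 and in conventional CD4 T cells, in spleen (grey) and in tumor (magenta), with bars for the standard error and filled points for an adjusted p under 0.05. In conventional CD4 T cells Irf4 is at 1.36 in spleen and -0.48 in tumor, and Prdm1 at 1.14 and -0.79.

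The age effect differed between tumor and spleen for 2 members in conventional CD4 T cells, against 0.668% of all genes. Tumor minus spleen, it was lower for Irf4 by 1.87 log2 units (-1.87 ± 0.39, adjusted p = 0.0129) and for Prdm1 by 1.95 (-1.95 ± 0.41, adjusted p = 0.015). In the spleen Prdm1 was at 6.96, 12.8 and 13.4 CPM at 3 months and 33.4, 24.6, 30.4 and 21.8 CPM at 12 months, and in the tumor at 162 and 96.8 CPM and at 81.5, 84.7, 51.5 and 86.9 CPM. Neither interaction passed without the 2 ribosome-rich libraries, at values of similar size (-1.997 for Irf4, adjusted p = 0.0827, and -1.87 for Prdm1, adjusted p = 0.141), or without replicate 1 of the 3-month group in the tumor (adjusted p = 0.396 and 0.383) or in the spleen (adjusted p = 0.0677 and 0.0752). Bhlhe40 (-3.66 ± 0.35, adjusted p = 9.35e-07) and 5 others of the 14 effector and residence regulators moved in the same direction, as did 5 of the 16 target genes. No member passed in the main edgeR fits of CD8 T cells (0.143% of all genes), regulatory T cells (0%), dendritic cells (0%) or macrophages (0%). There 3, 2, 0 and 0 members had an unadjusted p under 0.05, against 4.74%, 3.9%, 5.56% and 4.81% of all genes. By DESeq2 Irf4 passed in CD8 T cells (adjusted p = 0.0495).

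Compared per kilobase of exon, Id2 was the most abundant of the 10 in 8 of the 10 combinations of type and tissue. It stood at 586.5 ± 127 CPM per kilobase in tumor CD8 T cells (SD, n = 8), above Nr4a2 at 51.1 ± 14.9. The exceptions were spleen macrophages, with Nr4a1 first at 188 ± 46.4 CPM per kilobase, and spleen regulatory T cells, with Batf first at 69.3 ± 11.8. Across the 20 group means, on the log2(CPM + 1) scale, Tox and Batf were the closest pair of members (Pearson r = 0.856), Nr4a2 and Nr4a3 came at 0.738, and Nr4a1 and Eomes at -0.678. Nr4a1 was at 0.446 with Nr4a2 and at 0.104 with Nr4a3. These 20 points share cell types and libraries, so the values describe the groups only. Among 10686 genes, those most like Nr4a1 across the groups were Sik1 (r = 0.959) and Dusp1 (0.901), those most like Prdm1 were Glrx (0.964) and Slc2a8 (0.941), those most like Eomes were Samd3 (0.960) and Crtam (0.919), and those most like Tox were Abhd8 (0.986) and Inpp4b (0.983).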

How the data were processed

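The authors aligned reads with STAR 2.5.3 to mm10 and counted them with featureCounts, per the submitters' processing notes. The deposited table holds raw counts per gene symbol. Strand, multi-mapping and annotation settings were not given in the sources used here. Libraries were grouped by type, tissue and age in their titles. The members and the gene lists were chosen with earlier results of these data known. Each type was fitted with edgeR 4.0.16 in R 4.3.3 (limma 3.58.1): filterByExpr, TMM factors, robust quasi-likelihood tests, two-sided p, the Benjamini-Hochberg adjustment across every gene tested, threshold 0.05, and a sex term for dendritic cells. Tumor against spleen and the age by tissue interaction came from the 4 groups of a type, age from 2 groups, and comparisons of types from all T cell or all myeloid groups. Standard errors are the log2 fold change divided by the square root of its F statistic. Levels are CPM of the library total. Beside the members, up to 2 genes of each list with the smallest adjusted p and the genes most correlated over group means were named. Same-numbered libraries were not treated as pairs, since no label ties the numbers to an animal or day. In tumor regulatory T cells across ages every same-number correlation was over 0.1 (0.118 to 0.374), and no member was called there with or without the block. The scripts were tested on simulated counts. Alternatives were DESeq2 size factors, the Wald test of DESeq2 1.42.0, no low-count filter, a replicate block, all 4 groups for age, dendritic cells without the sex covariate, without or with re-aged libraries of conflicting labels, without libraries rich in ribosomal or macrophage transcripts, and each library left out. Library totals without TMM factors were added after seeing the data.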

Additional observations from a re-analysis of the deposited data

Results flagged for a closer look

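Of 150 values of a gene in a group of 4 libraries, 9 had 1 library far from the other 3 of its group by Dixon's criterion, and chance flags about 1 in 20 groups. Nr4a2 was high in replicate 4 of 12-month tumor conventional CD4 T cells (81.3 CPM). In the same group replicate 3 stood apart in both other cases: it was high in Nr4a3 (115.5 CPM) and low in Prdm1 (51.5 CPM). Nr4a3 was low in replicate 1 of 3-month spleen regulatory T cells (36.3 CPM). Irf4 was high in replicate 4 of 3-month tumor macrophages (14.6 CPM). The other 4 concern Eomes at low levels, each with 1 library above the rest: 3.45 CPM in replicate 4 of 3-month spleen macrophages, 0.330 CPM in replicate 2 of 12-month tumor regulatory T cells, 2.36 CPM in replicate 2 of 3-month tumor regulatory T cells and 1.52 CPM in replicate 4 of 3-month tumor dendritic cells.

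Of 89 tests of a difference between effects, 26 passed in edgeR. The 2 between tissues concern age in conventional CD4 T cells, for Irf4 (-1.87, tumor minus spleen, on the log2 scale) and Prdm1 (-1.95). Between CD8 and conventional CD4 T cells, the tumor effect differed for Nr4a2 (2.15), Irf4 (1.28), Tox (1.26) and Id2 (0.80). Between CD8 and regulatory T cells it differed for Nr4a2 (5.63), Eomes (3.67), Nr4a3 (3.52), Irf4 (2.37), Nr4a1 (2.25), Tox (1.89), Id2 (-0.85), Prdm1 (-1.59) and Tbx21 (-2.11). For regulatory minus conventional CD4 T cells the values were 1.95 for Prdm1, 1.65 for Id2, 1.598 for Tbx21, -1.09 for Irf4, -2.49 for Nr4a3, -2.63 for Eomes and -3.48 for Nr4a2. For dendritic cells minus macrophages they were 4.78 for Nr4a1, 4.64 for Nr4a2, 3.96 for Nr4a3 and 2.80 for Irf4. Calls lost without single libraries were Eomes for regulatory minus conventional CD4 T cells, without replicate 3 of 3-month tumor conventional CD4 T cells (-0.98, adjusted p = 0.828) or replicates 1 (0.0596) or 3 (0.0518) of 12-month tumor regulatory T cells, and Irf4 there, without replicate 1 of 3-month tumor conventional CD4 T cells (adjusted p = 0.0636). Id2 for CD8 minus conventional CD4 T cells was lost without replicate 4 of 3-month spleen (adjusted p = 0.0593) or replicate 3 of 3-month tumor conventional CD4 T cells (0.0916). Without the ribosome-rich spleen libraries, Id2 (0.53, adjusted p = 0.349) and Nr4a2 (2.26, adjusted p = 0.084) did not pass in that comparison, nor did Eomes for regulatory minus conventional CD4 T cells (-2.39, adjusted p = 0.127).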

How the results depend on the processing

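No called difference of a member changed sign under any alternative run. Of 123 called differences, 19 lost the call under at least 1 alternative other than leaving out a library, and 21 when some 1 library was left out, those given above among them. The 12 against 3 month comparisons in spleen, with 4 calls, gave 9 calls without a low-count filter, 8 with the DESeq2 Wald test, 7 with library totals and 1 without the ribosome-rich conventional CD4 libraries. In tumor, with 0 calls, there were 3 without the filter (Eomes and Tox in CD8 and Nr4a3 in conventional CD4 T cells). The age by tissue interaction, with 2 calls, gave 7 without the filter, 5 with DESeq2 and 0 without the ribosome-rich libraries. Dendritic cells against macrophages in spleen, with 5 calls, gave 8 without the filter and 3 by the age tags. With the replicate number as a block, age in spleen gave 7 calls and age in tumor 3 (Eomes, Nr4a3 and Prdm1 in conventional CD4 T cells). Leaving out each library in turn gave 1 to 7 calls for age in spleen and 0 to 5 for the interaction. The cause was not tested, except that fewer libraries entered the fits that left some out. The share of all genes called under each setting is not given here, so these changes in count need not be particular to the members. With library totals in place of TMM factors, Batf (-0.56, adjusted p = 0.0187) and Nr4a3 (-0.88, adjusted p = 0.0413) passed as lower in tumor macrophages, and regulatory and conventional CD4 T cells no longer differed in Tox in the tumor (0.37, adjusted p = 0.0997). Small groups, 2 to 4 libraries, limit the age comparisons, and levels under a few CPM rest on few counts.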
